A study of Mus musculus with 6 samples.

Results

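The lysosomal genes described here are 35 listed mouse genes that encode lysosomal hydrolases, their partners and the proteins of the lysosomal membrane. They were found through the array annotation, by taking each probe set whose only annotated gene is a listed symbol. Of the 35 genes, 34 had such a probe set, with 73 probe sets in all among the 45101 on the array, and Cd63 had none. Probe sets entered the test when detected (called Present) on 3 or more of the 6 arrays, which kept 64 of the 73 and at least 1 for each of the 34 genes. The whole series had 22063 tested probe sets, which covered 11357 genes.

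RNA came from the stroma of subcutaneous tumours in male B6 mice, taken 4 weeks after inoculation, with 1 array per sample. The 3 KO samples were from Pdia4-/- mice and the 3 WT samples from mice labelled WT, and the title asks which pathways act downstream of Pdia4 in stromal cells. Pdia4 is a disulphide isomerase of the endoplasmic reticulum, where disulphide bonds form in proteins that are on their way to the lysosome or the cell surface. Which tumour was grown is unsettled, since the design text gives GK1 and the growth protocol gives LLC (Lewis lung carcinoma). The tumour cells in both groups carry no genotype label, and the deleted part of Pdia4, the source of the WT mice and whether samples were processed separately are not given, so the spread behind each p-value may be partly technical.

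The number of Present probe sets ranged over 21202 to 22185 per array, and each array had been scaled to a trimmed mean of 500. The tested Pdia4 probe set read 2324, 1521 and 1402 in KO 1, 2 and 3, against 3942, 2766 and 4104 in WT 1, 2 and 3. Every KO array thus lay below every WT array, at 48.5% of the WT mean. This probe set was Present on all 6 arrays, however, and its limma adjusted p was 0.161. A second, dim Pdia4 probe set read 18.1, 27.4 and 65.3 in KO, against 40.3, 32.4 and 12.3 in WT. It was Present on 0 KO arrays and 1 WT array and was not tested. KO 3 stood apart, with a score of 105 on the first principal component against 11.8 and 12.0 for the other KO arrays and -51.0 to -37.1 for WT, and its file header has another code prefix than the other 5 headers. Class medians are therefore given also without KO 3, as are the log2 differences of lysosomal genes that move by over 1.5 times or turn sign without it. The ratio of the β-actin control signals at the 3′ and 5′ ends of the transcript, a sign of RNA quality, was 1.99, 1.51 and 1.53 in KO 1, 2 and 3 and 4.26, 1.66 and 2.70 in WT 1, 2 and 3.

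Lysosomes are acidic organelles in which hydrolases break down proteins, glycans and lipids delivered by endocytosis, phagocytosis and autophagy. A proton pump, the V-ATPase, acidifies them, heavily glycosylated membrane proteins such as LAMP1 and LAMP2 line them, and mannose 6-phosphate receptors carry most new hydrolases to them. Macrophages, which clear dead cells and matrix in tumours, are rich in lysosomes, and the transcription factors of the MiT/TFE family switch on many lysosomal genes together.

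None of the lysosomal genes passed the test. limma called 0 of the 64 member probe sets at an adjusted p under 0.05, against 6 of 22063 (0.0272%) over the whole array, and 0 of 34 genes against 4 of 11357 (0.0352%) with 1 probe set per gene. At an unadjusted p under 0.05, KO was higher in 17 of the 64 member probe sets and lower in 0, against 9.99% higher and 10.2% lower over all probe sets. By gene 8 of 34 were higher and 0 lower at that level, against 8.88% and 11.8%. The value of a gene below is that of its brightest tested probe set, by mean log2 signal, and every log2 difference is KO minus WT. In bulk stroma, a difference in the number of cells that carry lysosomal RNA and a difference in RNA per cell cannot be told apart.

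On the deposited scale, 25 of 34 genes were higher and 9 lower in KO, against 42.1% higher over all genes, and 2 of 34, Ctsa and Cd68, were higher when each array was divided by its own β-actin 5′ control signal, against 9.61% over all genes. On that scale, called the β-actin scale below, every log2 difference moves by the same -0.655, and the median over all genes was -0.75, against -0.10 on the deposited scale. The sign of a difference thus depends on the scale, while the position of the lysosomal genes relative to other genes does not. The divisor is the 5′ control of the transcript whose 3′ to 5′ ratio is given above. That ratio overlaps between the groups and is highest in WT 1 and WT 3. The shift is negative because the mean log2 of the divisor was higher in KO than in WT. The median log2 difference of the 34 genes was 0.17, within a range of -0.45 to 0.74, and it was -0.48 on the β-actin scale. Relative to the median of all genes it was 0.27 on either scale. Every KO array lay above every WT array in 13 genes, against 12.7% of all genes, and below in 4, against 20.5%, while the groups overlapped in the other 17. Over probe sets, 51 of 64 were higher in KO on the deposited scale, against 46.6% of all probe sets, with 26 of 64 above WT without overlap (13.5% of all) and 5 below (17.1%).

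Without KO 3 the pattern was smaller by its median and similar by its counts. The median of the 34 genes was 0.10, with 22 higher and 12 lower. Both remaining KO arrays lay above every WT array in 15 genes, against 15% of all genes, and below in 4, against 22.7%. limma called 0 of the 34 without KO 3, and over the whole array 1650 probe sets higher and 1736 lower had an unadjusted p under 0.05.

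**Figure D1:**
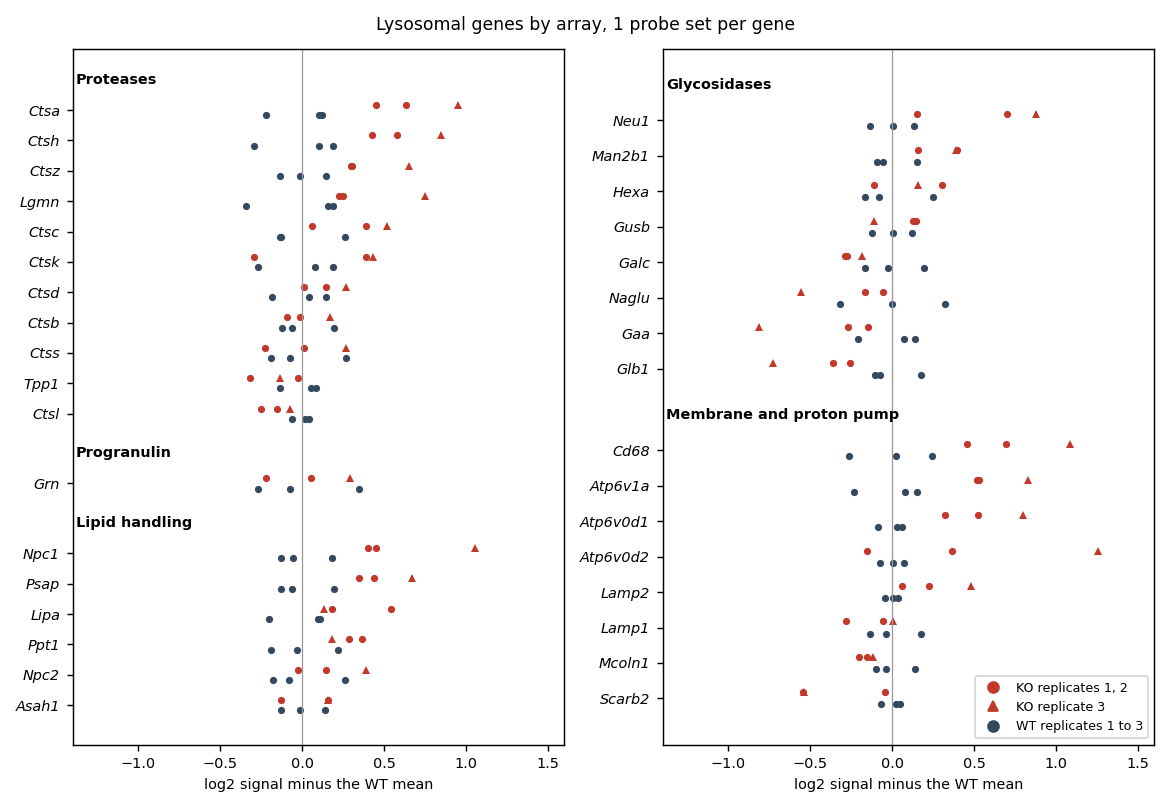
Log2 signal of each of the 34 lysosomal genes on each array, minus that gene's WT mean, by class, with KO and WT points in separate colours and KO 3 drawn as a triangle. On the deposited scale 25 of 34 KO means lie above 0 (2 of 34 on the β-actin scale), and limma called 0. KO lies above WT without overlap in 13 genes (12.7% of all genes) and below in 4 (20.5%).

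Among the proteases, Ctsa, Ctsh, Ctsz and Lgmn were higher and Ctsl lower on every KO array than on every WT array, but on the β-actin scale the difference of Ctsa alone stayed above 0. Of 11 protease genes 9 were higher and 2 lower in KO, with a median log2 difference of 0.17 (-0.48 on the β-actin scale), and limma called 0, with an unadjusted p under 0.05 in 2 higher and 0 lower genes. KO lay above WT in 4 of 11 (12.7% of all genes) and below in 1 (20.5%), and the groups overlapped in the other 6. Without KO 3 the median was 0.08, with 7 higher and 4 lower.

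Ctsa encodes cathepsin A, a serine carboxypeptidase that also holds together a complex with the sialidase Neu1 and the β-galactosidase Glb1. It read 11044, 9739 and 13806 in KO 1, 2 and 3, against 7642, 7738 and 6126 in WT 1, 2 and 3. All 3 KO arrays were above all WT arrays, with means of 11529.6 ± 2077 in KO and 7168 ± 904 in WT (SD, n = 3 each). The log2 difference was 0.68 (SE 0.22), and the limma adjusted p of 0.188 was the smallest among the 34 genes. Ctsh, the aminopeptidase cathepsin H, read 9889.6, 10996 and 13246 in KO, against 8370.3, 7908 and 5998 in WT, again with no overlap. Its log2 difference was 0.62 (SE 0.23; limma adjusted p = 0.211), and KO 3 was its highest array. A second Ctsh probe set had 0.53, with overlapping groups.

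Ctsz, the carboxypeptidase cathepsin Z, had 24658, 24614 and 31451 in KO, against 22172, 19808 and 18237 in WT. KO 1 and KO 2 were close to each other and not far above WT 1, and the log2 difference was 0.42 (SE 0.21; limma adjusted p = 0.293). The dimmer Ctsz probe sets had 0.38 with overlap (0.23 without KO 3) and 0.51 without overlap. Lgmn, the asparaginyl endopeptidase legumain that cleaves and activates several cathepsins, had 16413, 16145 and 23222 in KO, against 15721, 15399 and 10902 in WT. The groups were separated by a narrow gap, since KO 1 and KO 2 lay close to WT 1 and WT 2, and the log2 difference of 0.41 (SE 0.25; limma adjusted p = 0.373) was 0.24 without KO 3 and also 0.24 without WT 3. Ctsl, the endopeptidase cathepsin L, went the other way, with 28718, 26838 and 30274 in KO, against 32811, 30616 and 32352 in WT. Every KO array was below every WT array, but the difference was small, at -0.16 (SE 0.18; limma adjusted p = 0.627), and its dimmer probe set had 0.20, or 0.04 without KO 3.

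The other proteases overlapped between the groups on their brightest probe sets. Ctss, the cathepsin of antigen-presenting cells that trims the MHC class II invariant chain, had a log2 difference of 0.02 (SE 0.23), which was -0.11 without KO 3. Ctsd, the aspartic protease cathepsin D, had 0.14 (0.08 without KO 3), and Ctsk, the collagen-cleaving cathepsin best known from osteoclasts, had 0.17 (0.05 without KO 3). Tpp1, the tripeptidyl peptidase, had -0.16 on its brighter probe set. On its dimmer probe set Tpp1 read 1548, 1299 and 1262 in KO, against 2219, 1756 and 1742 in WT, with all KO arrays below WT and a log2 difference of -0.47 (limma adjusted p = 0.256).

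Ctsb and Ctsc differed most between their own probe sets. Ctsb, the abundant cysteine protease cathepsin B, had a log2 difference of 0.02 on its brightest probe set and 0.18, 0.77 and 0.85 on its other 3. The values 0.02 and 0.18 became -0.06 and 0.04 without KO 3. The probe set with 0.77 read 3939, 3656 and 5987 in KO, against 2886, 2679.8 and 2267 in WT, with no overlap (limma adjusted p = 0.188). The probe set with 0.85 read 5395, 9532 and 7967 in KO, against 2841, 6839 and 3597 in WT, with overlap, and its order over the 6 arrays was the exact reverse of the β-actin 3′ to 5′ ratio. This held for 1 of the 64 member probe sets (1.56%) and for 0.349% of all tested probe sets, and the part of RNA quality in the value was not tested.

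Ctsc encodes cathepsin C, the dipeptidyl peptidase that activates the granule serine proteases of neutrophils, mast cells and cytotoxic lymphocytes. Its brightest probe set read 31774, 25244 and 34728 in KO, against 29077, 22153 and 22109 in WT, with overlapping groups and a log2 difference of 0.32 (SE 0.23). Its second probe set read 1395, 901 and 3925 in KO, against 776, 427 and 351 in WT, a log2 difference of 1.80 (SE 0.56; limma adjusted p = 0.178). The KO arrays lay above WT there, with KO 3 far above every other array and a log2 difference of 1.20 without it. Its dimmest probe set had 533, 492 and 1241 in KO, against 358, 157 and 251 in WT, a log2 difference of 1.51 (SE 0.44; limma adjusted p = 0.17). The authors' deposited table of 1554 probe sets held 1 member probe set, this second Ctsc probe set, with a signed fold of -2.609 in the authors' deposited table. All 1493 probe sets of the authors' deposited table that were tested here had there the sign opposite to KO minus WT, Pdia4 included at 3.162.

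Among the glycosidases the genes were divided. Of 8 genes 4 were higher and 4 lower in KO, with a median log2 difference of -0.10, which was -0.75 on the β-actin scale. limma called 0, with an unadjusted p under 0.05 in 1 higher and 0 lower genes. KO lay above WT in 2 of 8 genes (12.7% of all genes) and below in 2 (20.5%), the second count close to that over all genes. The median was -0.01 without KO 3.

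Neu1, the sialidase that is stabilised by cathepsin A, read 853, 1247 and 1412 in KO, against 769, 843 and 698 in WT. KO 1 lay just above the highest WT array, and the log2 difference was 0.58 (SE 0.25; limma adjusted p = 0.247), or 0.43 without KO 3. Man2b1, the α-mannosidase of glycoprotein breakdown, read 9979.8, 8467 and 9942 in KO, against 8429, 7098 and 7286 in WT. KO 2 and WT 1 were nearly equal, and the log2 difference was 0.32 (SE 0.20; limma adjusted p = 0.374), while a dimmer Man2b1 probe set had 0.69 with no overlap.

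Glb1, the β-galactosidase of the same complex as Ctsa and Neu1, read 837, 779.8 and 605 in KO, against 950.4, 1132 and 932 in WT. It was below WT on every KO array, with a log2 difference of -0.45 (SE 0.22; limma adjusted p = 0.285), the lowest of the 34 genes. The members of that complex thus had log2 differences of 0.68 for Ctsa, 0.58 for Neu1 and -0.45 for Glb1 (on the β-actin scale Ctsa had 0.02, Neu1 -0.08 and Glb1 -1.10). Galc, which removes galactose from galactosylceramide of myelin, read 813, 807 and 867 in KO, against 965, 1126 and 877 in WT. KO 3 and WT 3 were nearly equal there, and the log2 difference was -0.25 (SE 0.20; limma adjusted p = 0.474).

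The other glycosidases overlapped. Gaa, the acid α-glucosidase that digests glycogen, had log2 differences of -0.41 and -0.56 on its probe sets, which were -0.21 and -0.31 without KO 3. Naglu, which cleaves heparan sulphate, had -0.26 (-0.11 without KO 3) and Hexa, the α subunit of β-hexosaminidase, had 0.12. Gusb, β-glucuronidase, had 0.05 on its brighter probe set (0.14 without KO 3) and 0.51 on its dimmer one. The dimmer read 585, 783 and 667 in KO, against 408, 560.5 and 461 in WT, with no overlap, and within each genotype its order was the reverse of the β-actin 3′ to 5′ ratio.

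**Figure D2:**
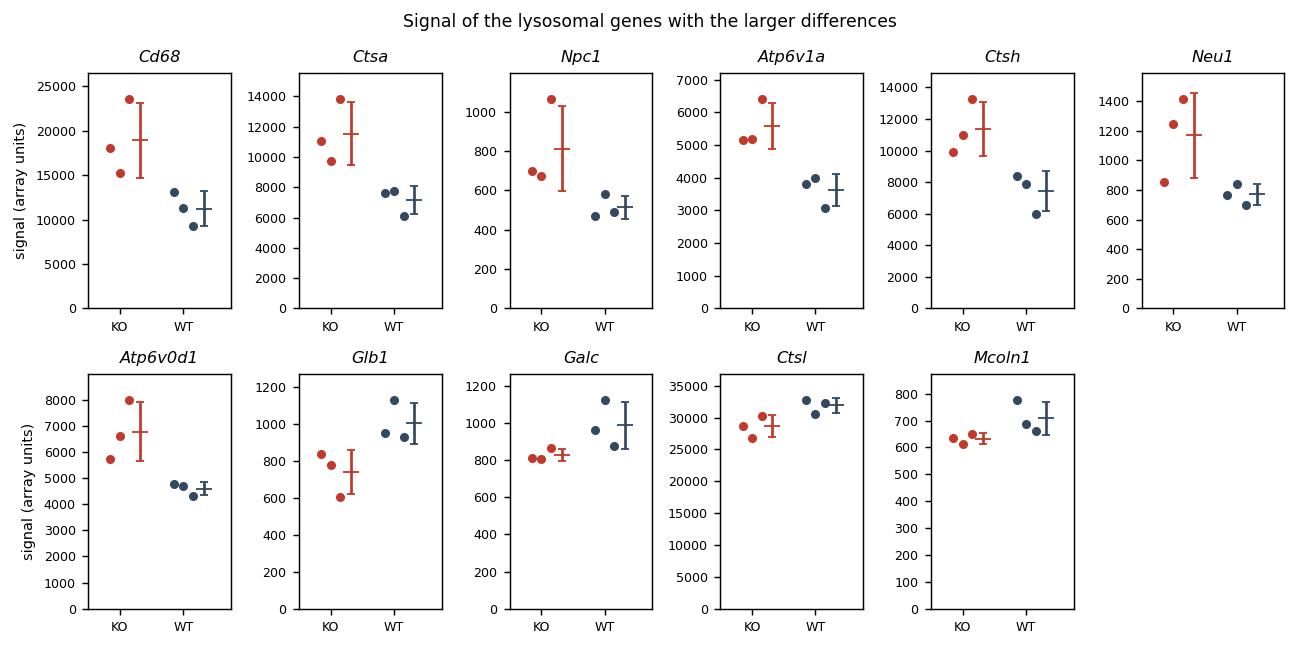
Deposited signal (linear scale) on each array, KO left of WT, for 11 lysosomal genes, with the mean and SD of 3 arrays per group. Cd68, Ctsa, Npc1, Atp6v1a, Ctsh, Neu1 and Atp6v0d1 lie higher on every KO array, and Glb1, Galc, Ctsl and Mcoln1 lower, while on the β-actin scale, with each array divided by its β-actin 5′ control, Ctsa and Cd68 alone of the 34 genes have a positive difference.

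All 6 lipid handling genes were higher in KO, with a median log2 difference of 0.28, and all 6 were lower on the β-actin scale, with a median of -0.37. limma called 0, with an unadjusted p under 0.05 in 2 higher and 0 lower genes, and KO lay above WT without overlap in 3 of the 6 (12.7% of all genes) and below in 0 (20.5%). Without KO 3 the median was 0.34 and all 6 were higher (on the deposited scale). Both remaining KO arrays then lay above every WT array in 4 (15% of all genes) and below in 0 (22.7%).

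Npc1, the membrane protein that moves cholesterol out of the lysosome, read 698, 675 and 1063 in KO, against 468, 580.3 and 492 in WT. KO 3 stood well above the other KO arrays, and the log2 difference of 0.63 (SE 0.25; limma adjusted p = 0.223) was 0.42 without it. Psap, the precursor of the saposins that present sphingolipids to their hydrolases, read 36651, 34324 and 42925 in KO, against 30864, 24729 and 25820.2 in WT. The groups did not overlap, and the log2 difference was 0.48 (SE 0.20; limma adjusted p = 0.244), with 0.39 without KO 3.

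The dimmer Psap probe set read 8203, 11838 and 9986 in KO, against 2969, 5993 and 3872 in WT. Its log2 difference was 1.27 (SE 0.30), and its limma adjusted p of 0.148 was the smallest of all 64 member probe sets. Within each genotype its order was the reverse of the β-actin 3′ to 5′ ratio. Such an order in both genotypes was found in 3 of the 64 member probe sets (4.69%), in Ctsb, Gusb and Psap, and in 2.91% of all tested probe sets. The part of RNA quality in these values was not tested.

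Lipa, the acid lipase that hydrolyses cholesteryl esters and triglycerides, read 5872, 4564 and 4416 in KO, against 4310.1, 4339 and 3502 in WT. KO 3 lay just above WT 2, the log2 difference was 0.28 (SE 0.22; limma adjusted p = 0.457), and it was 0.36 without KO 3. Of its other Lipa probe sets, 1 had 0.31 without overlap and 1 had -0.08. Ppt1, which removes palmitate from proteins, had 0.28 with overlap on its brightest probe set. A second Ppt1 probe set read 1598, 2073 and 2037 in KO, against 1101, 1186 and 1066 in WT, a log2 difference of 0.76 (SE 0.20; limma adjusted p = 0.162) with no overlap, and the dimmest had 0.22 (0.03 without KO 3). Npc2, the soluble cholesterol carrier that works with Npc1, had 0.17, 0.34 and 0.24 on its probe sets, which were 0.06, 0.14 and 0.11 without KO 3. Asah1, acid ceramidase, had 0.06 (0.02 without KO 3), and all of these overlapped.

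Of 8 measured membrane and proton pump genes 5 were higher and 3 lower in KO, with a median log2 difference of 0.37, but -0.28 on the β-actin scale. limma called 0, with an unadjusted p under 0.05 in 3 higher and 0 lower genes. KO lay above WT in 4 of 8 (12.7% of all genes) and below in 1 (20.5%). Its median was the highest of the 4 classes with all arrays, but without KO 3 it was 0.12, below the 0.34 of the lipid handling genes, with 5 higher and 3 lower.

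Cd68, a glycosylated lysosomal membrane protein that is abundant in macrophages, had the largest log2 difference of the 34 genes on their brightest probe sets. It read 18015, 15219.5 and 23519.5 in KO, against 13146, 11288 and 9241 in WT, with no overlap. The log2 difference was 0.74 (SE 0.25; 95% interval 0.17 to 1.32; limma adjusted p = 0.19), and without KO 3 it was 0.58. Lamp2, a major protein of the lysosomal membrane with a role in autophagy, read 13085, 11667 and 15659 in KO, against 11247, 11481 and 10881 in WT. KO 2 was close to the WT arrays, and the log2 difference was 0.26 (SE 0.20; limma adjusted p = 0.473), or 0.14 without KO 3. Its 3 dimmer probe sets ranged over 0.16 to 0.55, and over 0.11 to 0.45 without KO 3. Lamp1, its close relative, read 21198, 18134 and 22110.4 in KO, against 24886, 21407 and 20005 in WT, with overlap and a log2 difference of -0.11 (-0.17 without KO 3).

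Mcoln1, the calcium channel TRPML1 that releases lysosomal calcium, read 636, 613 and 651 in KO, against 778, 687 and 659.7 in WT. KO lay below WT by a narrow gap, with a log2 difference of -0.16 (SE 0.19; limma adjusted p = 0.635), and its other probe sets had 0.06 and -0.20 (-0.03 and -0.12 without KO 3). Scarb2, the receptor LIMP-2 that carries glucocerebrosidase to the lysosome, had -0.38 on its brighter probe set and 0.29 on its dimmer one (0.13 without KO 3), both with overlap.

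Of the V-ATPase subunits, Atp6v1a, the catalytic A subunit of the cytosolic V1 part, read 5139, 5194 and 6396 in KO, against 3802, 3999 and 3059 in WT. The groups were well apart, with a log2 difference of 0.63 (SE 0.21; limma adjusted p = 0.194), and its dimmer probe set had 1.10, also without overlap. That probe set read 1132, 801 and 2517 in KO, against 565, 728 and 565 in WT, and without KO 3 its log2 difference was 0.63. Atp6v0d1, the widely expressed d subunit of the membrane V0 part, read 5733, 6600.4 and 7998 in KO, against 4783, 4692 and 4316 in WT. These did not overlap either, and the log2 difference was 0.55 (SE 0.21; limma adjusted p = 0.218), with 0.42 without KO 3. Atp6v0d2, the d subunit form of osteoclasts and some macrophages, had a log2 difference of 0.49, which was 0.11 without KO 3. KO 2 lay below all WT arrays and KO 1 and KO 3 above them. The dimmer Atp6v0d2 probe set had 0.88 (limma adjusted p = 0.18) without overlap and was Present on 2 of the 3 WT arrays.

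Grn, which encodes progranulin, a secreted protein that is cut into granulins in the lysosome, belongs to no class above. It read 25104, 20724 and 29618 in KO, against 30705, 20056 and 22970.3 in WT. The groups overlapped throughout, and its probe sets had log2 differences of 0.04, 0.05 and 0.24, which were -0.08, -0.03 and 0.15 without KO 3.

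Different probe sets of a gene mostly had the same sign. Of 19 lysosomal genes with several tested probe sets, 13 had all of them higher in KO and 2, Gaa and Tpp1, all lower, while Ctsl, Lipa, Mcoln1 and Scarb2 differed in sign (these signs are those of the deposited scale, and the β-actin scale turned 23 of 34 genes). The dimmest probe set had a more positive difference than the brightest in 12 of 19 genes (63.2%), and in 61.6% of the 4797 genes of the array with several. The median of dimmest minus brightest was 0.20 in the lysosomal genes and 0.13 in all such genes. The largest log2 differences of this gene set, 1.80 and 1.51 for Ctsc, 1.27 for Psap and 1.10 for Atp6v1a, all came from probe sets that were not the brightest of their gene. This order rests on KO 3, since without it Psap had 1.27, Ctsc 1.20 and 1.08 and Atp6v1a 0.63, and the dimmer Man2b1 probe set with 0.82 and a Ctsb probe set with 0.80 then lay above Atp6v1a.

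**Figure D3:**
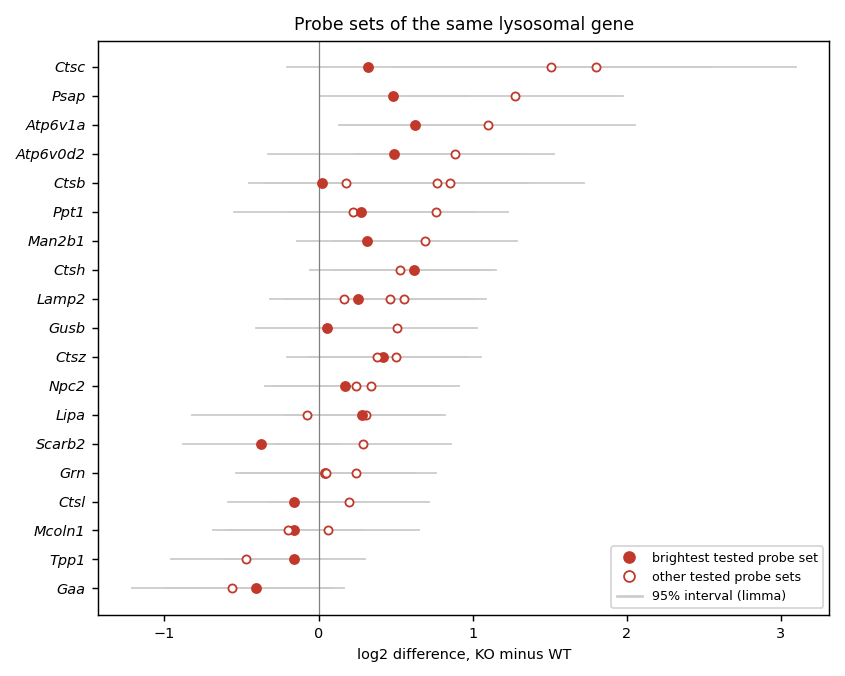
Log2 difference (KO minus WT, with 95% interval from limma) of every tested probe set of the 19 lysosomal genes that have several, the brightest filled and the others open. Within 13 genes all points lie above 0 on the deposited scale, in Gaa and Tpp1 all lie below, and 4 genes have both signs, with every point lower by the same amount on the β-actin scale.

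**Figure D4:**
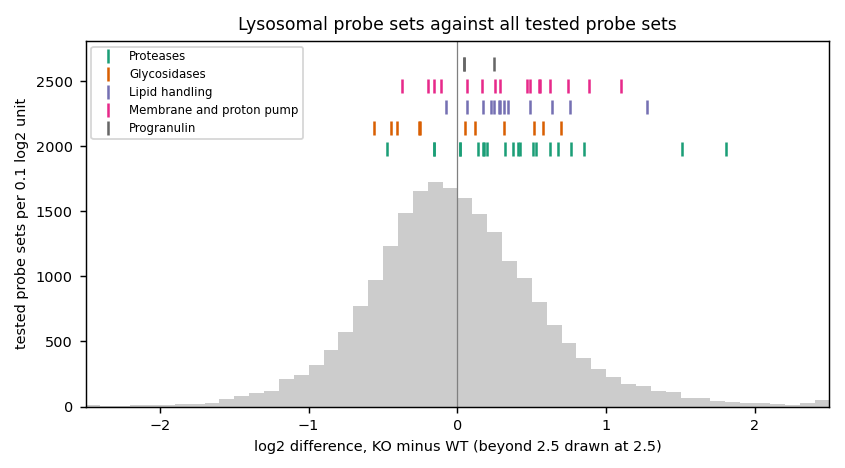
Distribution of the log2 difference (KO minus WT) over all 22063 tested probe sets, with a tick for each of the 64 member probe sets by class. The member median of 0.28 lies to the right of the median of all probe sets, -0.05, and the β-actin scale moves the whole picture to the left, with a median of all probe sets of -0.70.

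Many lysosomal genes carry a short palindrome in their promoters, the E-box that MiT/TFE factors bind, and every promoter found to hold its longer form is shown, so that the letters stand beside the values. Promoters were read from RefSeq (GRCm38.p6), 250 bases before to 50 after each gene's start, and 30 of the 35 genes matched. Asah1, Atp6v0d2, Ctsb, Ctsh and Npc1 were not among these 30. Both strands were searched for TCACGTGA and for the CACGTG inside it, and as each is its own reverse complement a match on either strand is a match on both. TCACGTGA was in 5 of 30 promoters (16.7%), against 1.12% of 27025 genes with a promoter and 2.21% of the 9229 of them tested here. A window of 100 bases is printed for each, running no more than 30 bases past the start, with each TCACGTGA in capitals.
Ctsa, chr2:164833703-164833802, plus strand: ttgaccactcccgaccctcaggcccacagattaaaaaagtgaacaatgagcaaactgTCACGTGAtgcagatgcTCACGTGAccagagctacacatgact
Ctsd, chr7:142387873-142387972, minus strand: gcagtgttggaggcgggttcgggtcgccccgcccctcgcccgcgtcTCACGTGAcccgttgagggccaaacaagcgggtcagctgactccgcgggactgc
Mcoln1, chr8:3500427-3500526, plus strand: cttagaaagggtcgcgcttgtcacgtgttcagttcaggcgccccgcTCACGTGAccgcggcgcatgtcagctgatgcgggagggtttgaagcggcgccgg
Atp6v0d1, chr8:105566035-105566134, minus strand: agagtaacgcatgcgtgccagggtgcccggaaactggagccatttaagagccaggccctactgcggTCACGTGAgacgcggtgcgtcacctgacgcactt
Atp6v1a, chr16:44139338-44139437, minus strand: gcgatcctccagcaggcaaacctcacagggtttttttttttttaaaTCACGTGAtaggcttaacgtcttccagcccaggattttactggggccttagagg

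The Ctsa window holds the palindrome at 2 places and the others at 1. Of these 5 genes 4 were higher in KO, with log2 differences of 0.68 for Ctsa, 0.63 for Atp6v1a, 0.55 for Atp6v0d1 and 0.14 for Ctsd, and Mcoln1 had -0.16 (on the β-actin scale Ctsa alone was above 0). KO lay above WT without overlap in 3 of the 5, and in 8 of the 24 measured genes without the palindrome (12.7% of all genes). These are too few for a comparison. The shorter CACGTG was in 11 of 30 promoters (36.7%), against 8.09% of all genes and 11.7% of tested genes, and its genes did not follow the same direction. Of those 11 genes 5 were higher and 6 lower in KO, with a median of -0.11, and of the 18 without it 15 were higher, with a median of 0.22. These matches are descriptions and were not tested against the differences.

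Other genes of the lysosomal pathway came from 6 lists. Of their 74 genes 60 were tested, and limma called 0 in either direction, with an unadjusted p under 0.05 in 14 higher and 0 lower genes. On the deposited scale 48 were higher and 12 lower in KO, with a median log2 difference of 0.33, while 12 were higher on the β-actin scale, with a median of -0.33. KO lay above WT without overlap in 23 (12.7% of all genes) and below in 5 (20.5%). Without KO 3 the median was 0.28, with 46 higher, 25 above WT without overlap (15% of all genes) and 5 below (22.7%).

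Of 16 further hydrolases 9 were higher in KO, with a median of 0.19 (2 of 16 and -0.46 on the β-actin scale), and KO lay above WT in 5 (12.7% of all genes) and below in 3 (20.5%). Gla, the α-galactosidase that clears globotriaosylceramide, read 1864, 2287 and 4475 in KO, against 909.9, 1111 and 709.8 in WT. The groups were far apart, with a log2 difference of 1.58 (SE 0.36; limma adjusted p = 0.147), larger than that of any of the 34 genes on their brightest probe sets. Ctsw, a cathepsin of cytotoxic lymphocytes, had 0.83 and Arsa, the arylsulphatase that acts on sulphatide, had -0.49, both without overlap.

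Among 13 further V-ATPase subunits 12 were higher in KO, with a median of 0.29 (2 of 13 and -0.36 on the β-actin scale), and KO lay above WT in 4 (12.7% of all genes) and below in 0 (20.5%). Atp6v1b2, the B subunit that pairs with Atp6v1a in the catalytic head, read 2290.4, 2913 and 3506 in KO, against 1813, 1894 and 1405 in WT. Its groups did not overlap, and the log2 difference was 0.76 (limma adjusted p = 0.182), next to 0.69 for Atp6v1e1 and 0.63 for Atp6v1c1, of which Atp6v1c1 overlapped. Of 10 further membrane proteins 8 were higher, with a median of 0.34 (1 of 10 and -0.31 on the β-actin scale). Gpnmb, a glycoprotein of lysosome-rich macrophages and a known MiT/TFE target, read 2066, 1766 and 3089 in KO, against 1044, 777 and 585 in WT. This gave a log2 difference of 1.52 (SE 0.31) without overlap, and at 0.14 the smallest limma adjusted p of the 60 genes. Cln3, a membrane protein mutated in a juvenile lysosomal storage disease, had 0.40 without overlap, and Ctns, the cystine exporter, had 0.51 with overlap.

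In the mannose 6-phosphate sorting list 7 of 9 were higher in KO, with a median of 0.49 (2 of 9 and -0.16 on the β-actin scale). M6pr, the cation-dependent mannose 6-phosphate receptor, read 8191, 8072 and 12404 in KO, against 6551, 6601 and 5730.5 in WT, a log2 difference of 0.58 without overlap. The sorting receptors Sorl1 and Sort1 had 1.33 and 0.82, also without overlap (limma adjusted p = 0.176 and 0.224). All 7 tested MiT/TFE factors and regulators were higher, with a median of 0.55, and 2 of 7, Tfec and Flcn, stayed higher on the β-actin scale. Tfec, the family member most restricted to macrophages, read 648, 822 and 1286 in KO, against 322, 415 and 313 in WT, a log2 difference of 1.34 (SE 0.29; limma adjusted p = 0.145). Flcn, folliculin, which regulates the nuclear entry of these factors, had 1.00, and Mitf had 0.62, with no overlap in either, while Tfeb was Present on 0 arrays.

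All 5 tested cathepsin inhibitors were higher in KO, with a median of 1.15 (3 of 5 and 0.50 on the β-actin scale). Cst7, cystatin F of leukocyte lysosomes, read 842, 1187 and 1096 in KO, against 441, 369 and 615 in WT, without overlap and with a log2 difference of 1.15 (SE 0.26; limma adjusted p = 0.147). Stfa2l1 had 1.95 and Stfa3 1.43, but these stefins belong to a cluster of near-identical paralogs, so which of them was measured is uncertain. Without KO 3 the median of the inhibitors was 0.83, the largest difference that this array made to any of the 6 lists.

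Averaged over the genes of a class, the arrays separated by genotype in the lipid handling class and overlapped in the proteases, the glycosidases and the membrane and proton pump class. The lipid handling mean, in log2 units relative to the WT mean, was 0.35, 0.18 and 0.43 in KO 1, 2 and 3, against 0.13, -0.01 and -0.12 in WT 1, 2 and 3. The protease mean was 0.20, 0.05 and 0.42 in KO, against 0.15, 0.01 and -0.17 in WT, so that KO 2 lay below WT 1. The membrane and proton pump mean was 0.23, 0.05 and 0.47 in KO, against 0.10, 0.01 and -0.12 in WT, with the same overlap. In the glycosidases it was 0.02, -0.01 and -0.12 in KO, against 0.06, 0.09 and -0.15 in WT, and WT 2 was the highest array.

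**Figure D5:**
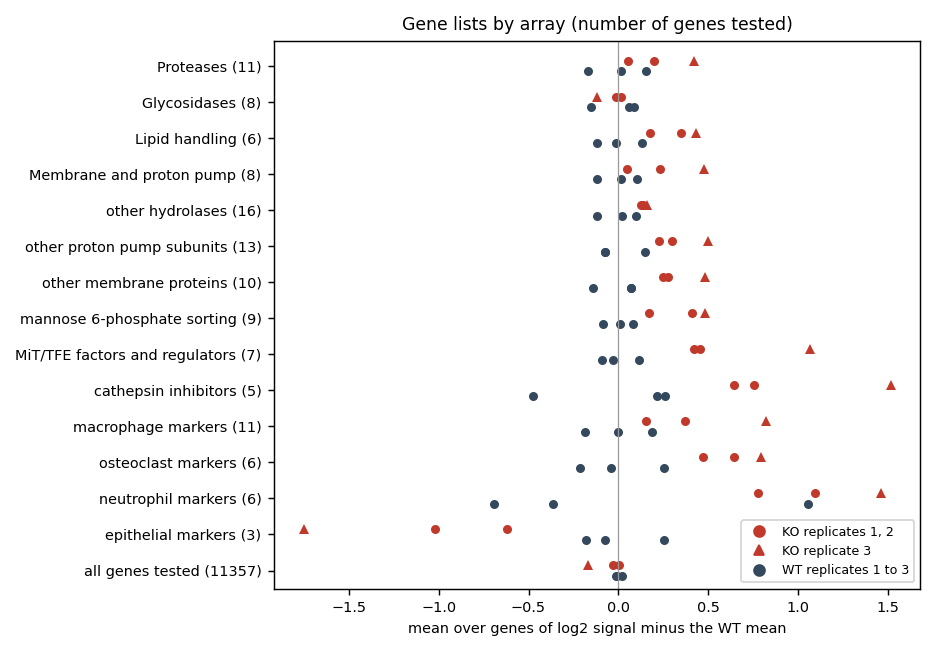
Mean log2 signal of each lysosomal class, pathway list and marker list, and of all tested genes, on each array, relative to the WT mean, with KO and WT points in separate colours and KO 3 drawn as a triangle. KO 3 is the highest array in 3 of the 4 lysosomal classes and WT 3 the lowest in all 4, the lipid handling means do not overlap and the glycosidase means do throughout, and these positions hold on the deposited scale, as the β-actin scale lowers the KO positions relative to WT.

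Markers of cell types that could be present in this stroma also differed between the groups, and their part in the lysosomal differences was not tested. Of 11 tested macrophage markers 9 were higher in KO, with a median log2 difference of 0.49 (3 of 11 and -0.17 on the β-actin scale) and 0.20 without KO 3, and limma called 0, with an unadjusted p under 0.05 in 4 higher and 0 lower genes. Their summed signal ranged over 154776 to 240623 in KO and over 140774 to 174862 in WT, so the groups overlapped. The defining markers differed among themselves. The F4/80 gene Adgre1 read 3408, 3117 and 3391 in KO, against 3573, 3182 and 2738 in WT, a log2 difference of 0.07 with overlap. Csf1r, the receptor of the macrophage growth factor, had 0.20 with overlap on its brightest probe set. Its dimmer probe sets had 0.49 with overlap and 0.78 without. The 2 lower markers, Mertk at -0.12 and Lyz2 at -0.17, overlapped. Itgam had 1.24, Aif1 1.11 and C1qa 0.52, each without overlap.

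Of 6 tested osteoclast markers 4 were higher in KO, with a median of 0.62 (3 of 6 and -0.04 on the β-actin scale). Acp5, the tartrate-resistant acid phosphatase, had 1.00 and Ocstamp 1.54, both without overlap (2 of 6, against 12.7% of all genes). Mmp9 had 1.27 and Tnfrsf11a 0.23, both with overlap. The 2 lower ones, Itgb3 at -0.145 and Nfatc1 at -0.08 on its brightest probe set, also overlapped. Dimmer Nfatc1 probe sets had 0.79 without overlap and -0.29 with overlap. Oscar and Dcstamp were Present on 0 arrays and Calcr on 1. All 6 tested neutrophil markers were higher in KO (4 of 6 on the β-actin scale), with a median of 1.12 and overlapping sums of 158051 to 204392 in KO and 71312 to 231550 in WT. T cell markers, 5 of 5 higher in KO on either scale, summed to 6179 to 7908 in KO and 1721 to 4220 in WT, without overlap. Of 3 tested epithelial markers 2 were lower and 1 higher in KO. Krt8 read 3307, 2451 and 850.0 in KO, against 7601, 6475 and 5591 in WT, and Krt18 was also below WT on every KO array. Cdh1 had 0.33 with overlapping groups (below 0 on the β-actin scale), and Epcam was Present on 0 arrays. The epithelial sum, which Krt8 and Krt18 dominate, was 2200 to 6377 in KO and 11338 to 15168 in WT, without overlap.

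Fibroblast markers went both ways, with 3 higher and 4 lower in KO on either scale. Col1a1 had 1.70, Col1a2 1.27 and Pdgfrb 0.76, the collagens without overlap, whereas Pdgfra had -1.13, Dcn -1.08 and Dpt -0.94, each without overlap, and Lum had -0.84 with overlap. The median of these 7 was -0.84, and -0.06 without KO 3. Col1a2 read 2455, 1477.5 and 7402 in KO, against 1413.5, 1314 and 1041 in WT, with KO 3 far above every other array. All 4 tested endothelial markers were higher in KO (3 of 4 on the β-actin scale), with a median of 0.97 and 3 without overlap (12.7% of all genes). Their signals were low, with sums of 868 to 1130 in KO and 418 to 569 in WT, and Pecam1 was Present on 0 WT arrays. Of 4 tested NK cell markers 3 were higher (2 of 4 on the β-actin scale), with a median of 0.79, and of 5 mast cell markers all 5 (2 of 5 on that scale), with a median of 0.50.

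Of 3 tested dendritic cell markers 2 were higher in KO (1 of 3 on the β-actin scale). Itgax, the CD11c integrin that macrophages also carry, had 1.44 without overlap, at a limma adjusted p of 0.108, and Flt3 had -0.31 with overlap. Both adipocyte markers were higher in KO and below 0 on the β-actin scale, both B cell markers were lower on their brightest probe sets, and in each the groups overlapped. Ms4a1 read 145.5, 888 and 144 in KO, against 113, 69 and 3439 in WT, and its dimmer probe set had 1.86 with overlap. Without KO 3 the B cell median was 0.05, with 1 higher and 1 lower. The 4 skeletal muscle markers were not tested, as too few arrays had Present calls.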

How the data were processed

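Each array file deposited by the authors holds, for each probe set of the Affymetrix Mouse430_2 array, a signal intensity on a linear scale with its detection call, per the file headers. An expression report deposited for 1 array names the Statistical algorithm with a target value of 500. The array software version and genome build are not given in the sources used here. Signals were already scaled to a trimmed mean of 500, so their log2 was tested without further normalization, and the deposited value table held the same values in 270606 of 270606 cells. The authors' deposited comparison table holds a score, a signed fold per probe set, whose calculation is not given.

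Control probe sets (64) did not enter the test, nor did those Present on fewer than 3 of 6 arrays. The annotation gave 34958 probe sets a single symbol, 932 several and 9211 none. KO was compared with WT by limma 3.58.1 in R 4.3.3 (lmFit, eBayes, no covariates, two-sided), with Benjamini-Hochberg adjustment over all tested probe sets and a call at an adjusted p under 0.05. Values are means ± SD over n = 3 arrays. 1 probe set per gene, the tested one with the highest mean log2, gave the gene values. The number of arrays limits the precision.

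The lysosomal genes, the pathway and marker lists, the rule for naming genes and the alternatives were chosen with earlier results of these data known. By that rule all members are named, in full where groups do not overlap, with Pdia4 and up to 3 genes of smallest p per pathway list, and members' other probe sets and the markers given here are outside it. Same-numbered arrays correlated at r = 0.16, 0.03 and -0.10 in their deviations from the group means. No pairing by replicate number was thus seen, though 3 arrays per group are too few to settle it.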

Additional observations from a re-analysis of the deposited data

How the results depend on the processing

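The count of 0 called member probe sets held under all 18 alternatives run. The 6 called probe sets of the whole array became 1 with 75th percentile scaling, 24 with log2(signal + 50), 27 with trend and robust eBayes, 19 with array weights and 1135 on the β-actin scale. They became 0 by limma with quantile normalization (an unadjusted p under 0.05 in 2239 higher and 2206 lower probe sets), cyclic loess (2442 and 2106), no filter on calls (2919 and 1859), Present calls on all 6 arrays (1823 and 2038) and the replicate number as a block (2316 and 2400). That block, in a pairing the data do not bear out, gave 0 calls and changed no other count by over 1.5 times. Leaving out 1 array gave 0 to 2 calls, 2 without WT replicate 2.

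The β-actin scale moves every gene by 1 constant, so the signs it turned follow from the size of that constant, and the median of the members minus that of all genes was 0.27 with and without it. The members higher in KO were then 2 in place of 25 (21 to 25 with 1 array left out), against 9.61% of all genes on that scale. Those with KO above WT were 0 in place of 13 (13 to 17). That count was not made over all genes on the β-actin scale, so the 0 has no share beside it. The medians were then -0.48 for all members, -0.48 for proteases, -0.75 for glycosidases, -0.37 for lipid handling and -0.28 for membrane and proton pump genes. With array weights the glycosidase median was 0.0205, and with the mean over its probe sets as a gene's value, the protease median was 0.41. With 1 array left out the medians ranged from 0.10 to 0.27 for all members, 0.0476 to 0.41 for proteases, -0.17 to -0.0075 for glycosidases, 0.18 to 0.36 for lipid handling and 0.12 to 0.46 for membrane and proton pump genes. The lowest came without KO replicate 3 for all members and the membrane class and without WT replicate 3 for the proteases, glycosidases and lipid handling genes. The cause was not tested, beyond the constant that the β-actin scale adds. The sign of the difference turned in 23 of 34 genes on the β-actin scale, in 3 each with array weights and, chosen after seeing the data, the dimmest probe set of a gene, in 1 each with quantile normalization and the mean of probe sets, and in 0 to 4 with 1 array left out.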
